A study of Mus musculus with 4 samples.

Results

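The data on mucins and on the genes of the goblet cell, the mucus-secreting cell of airway-type epithelium, were drawn from 4 two-colour microarrays of the mouse middle ear. The members were the 10 genes Muc1, Muc4, Muc5ac, Muc5b, Muc13, Muc16, Muc20, Agr2, Spdef and Tff2, and every probe whose accession RefSeq pairs with one of them was taken. Of these, 9 genes were covered by 11 probes out of the 39429 on the array, and no probe was paired with Muc16, which was not analysed here. With a ratio required on at least 3 arrays, 9 member probes remained, 1 for each of the 9 genes, among 31577 probes and 17962 named genes tested.

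Each array carried, by the source names in the sample labels, an extract of ear tissue exposed to diesel exhaust particles (DEPs) in the red dye Cy5 and one of control ear tissue, labelled as untreated, in the green dye Cy3. The study used 9 male BALB/c mice, 6 to 10 weeks old, and those exposed breathed DEPs for 1 h a day over 5 days, with the ears taken on day 14. The labels name the 4 arrays biological replicates, but the number of mice behind an extract is not given in the sources used here. Temporal bone areas were harvested, so the extracts can hold bone, marrow, muscle, skin and nervous tissue beside the mucosa. The labels list both treatments under the red channel, so that the direction rests on the source names, and no dye was swapped, so that an effect of the dye and of exposure cannot be told apart. A ratio is written as the log2 of DEP over control, with 0 for equal signals and negative values for a lower signal in DEP. This direction is opposite to that of the study for the genes it names, and if the channels were exchanged every sign given here would turn.

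All 4 arrays lay on 1 slide scanned on 1 day, so that no batch could be compared. Between 65.4% and 68.9% of probes were well above background in the DEP channel and between 59.2% and 68.0% in the control channel, and 0 spots were saturated. Markers of ciliated and secretory mucosa were present, as all 18 such genes tested, among them Foxj1, stood well above background in each channel of every array, while Dnah9 of the same list did so on no array.

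Mucins are large glycoproteins whose serine- and threonine-rich repeats carry dense O-linked sugars. The gel-forming mucins are secreted and make up the mucus that cilia sweep from the middle ear through the Eustachian tube, while the transmembrane mucins coat the apical surface of epithelial cells. Goblet and mucous gland cells make the secreted forms with the help of a set of folding enzymes, trefoil peptides and transcription factors. Muc6, Muc2, Muc5ac and Muc5b lie next to each other in that order in the RefSeq annotation of GRCm38.p6, and Muc4 and Muc20 overlap at one end.

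The upstream sequences of a pair of genes whose levels moved together between the extracts, Spdef and Agr2, and of Muc13, whose level moved less than theirs, are shown here from RefSeq (build GRCm38.p6). Each run holds the 250 bases before the annotated start, 5′ to 3′ on the strand of the gene. Of the 9 measured genes, Muc5ac, Muc5b and Tff2 were not matched to a sequence. Capitals mark matches on either strand to the xenobiotic response core GCGTG, bound by the aryl hydrocarbon receptor with its partner, to the forkhead motifs GTAAACA and GTAAATA, to the ETS-type motif CCGGAT, to TATAAA or to the AP-1 motif TGACTCA.
Spdef, chr17:27728952-27729201, minus strand: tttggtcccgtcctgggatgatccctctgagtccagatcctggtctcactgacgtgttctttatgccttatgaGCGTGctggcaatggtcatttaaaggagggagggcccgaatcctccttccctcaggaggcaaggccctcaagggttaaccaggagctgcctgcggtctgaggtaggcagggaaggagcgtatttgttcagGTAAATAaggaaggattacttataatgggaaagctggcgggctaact
Agr2, chr12:35992675-35992924, plus strand: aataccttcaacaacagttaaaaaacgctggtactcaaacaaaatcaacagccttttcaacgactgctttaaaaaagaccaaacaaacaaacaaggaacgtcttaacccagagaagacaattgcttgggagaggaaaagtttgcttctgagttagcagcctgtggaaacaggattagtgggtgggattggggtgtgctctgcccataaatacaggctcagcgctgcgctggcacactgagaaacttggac
Muc13, chr16:33793787-33794036, plus strand: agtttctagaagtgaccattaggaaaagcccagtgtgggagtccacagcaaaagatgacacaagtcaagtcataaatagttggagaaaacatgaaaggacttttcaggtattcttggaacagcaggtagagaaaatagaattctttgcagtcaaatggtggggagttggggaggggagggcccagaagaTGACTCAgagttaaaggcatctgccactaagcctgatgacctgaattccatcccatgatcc
The Spdef window held GCGTG at 177 bases and GTAAATA at 47 bases before the start, counted to the first base of the match, and the Agr2 window held none of these motifs. TGACTCA lay 61 bases before the Muc13 start shown, and its reverse complement lay 179 bases before a second annotated Muc13 start that is not printed. Of 32851 such windows, 28.2% held GCGTG, 2.73% GTAAATA, 3.17% GTAAACA, 4.94% CCGGAT, 12.4% TATAAA and 4.46% TGACTCA. Among the members not printed, Muc1 and Muc4 had TATAAA at 31 and 36 bases before their starts and Muc20 had GTAAACA at 248. These matches describe the sequence and were not tested for binding.

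Muc5b and Tff2, both of them secreted with mucus, were lower in DEP than in control on all 4 arrays. Muc5b was lower by 2.66-fold and Tff2 by 1.98-fold on average. The folding enzyme gene Agr2, the transcription factor gene Spdef and the transmembrane mucin gene Muc4 were lower on 3 arrays and higher on array 2. The means of Muc1, Muc5ac, Muc13 and Muc20 lay between -0.22 and 0.0026 on the log2 scale. In such whole-tissue extracts, fewer cells of a type and less RNA per cell cannot be told apart. After Benjamini-Hochberg adjustment over all probes tested, limma's moderated test gave 0 of 9 members a p under 0.05, and 0.0% of all named genes, so that none of these differences passed the test. Unadjusted, 2 of 9 members (Muc5b and Tff2) had a p under 0.05 and were lower in DEP, beside 7.5% of all named genes in that direction, and 0 were higher, beside 9.2%. The lower count was 4 (Muc5b, Agr2, Spdef and Tff2) without array 2, beside 3.99% of named genes in that fit, and 1 (Muc5b) with normexp correction and median centring, beside 11.5%. Without moderation of the variance 2 members were lower, beside 5.34%, and 0 higher, beside 9.4%. A mean past 2-fold lower was found for 1 of 9 members, Muc5b, beside 4.1% of named genes, and past 2-fold higher for 0 members, beside 2.15%. The lower limit was passed by 4 members (Muc4, Muc5b, Agr2 and Tff2) without array 2, beside 3.4% of genes, and by 2 (Muc5b and Tff2) without array 4, beside 6.29%. It was passed by 0 with normexp background correction and each array centred on its median, beside 0.834%.

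**Figure D1:**
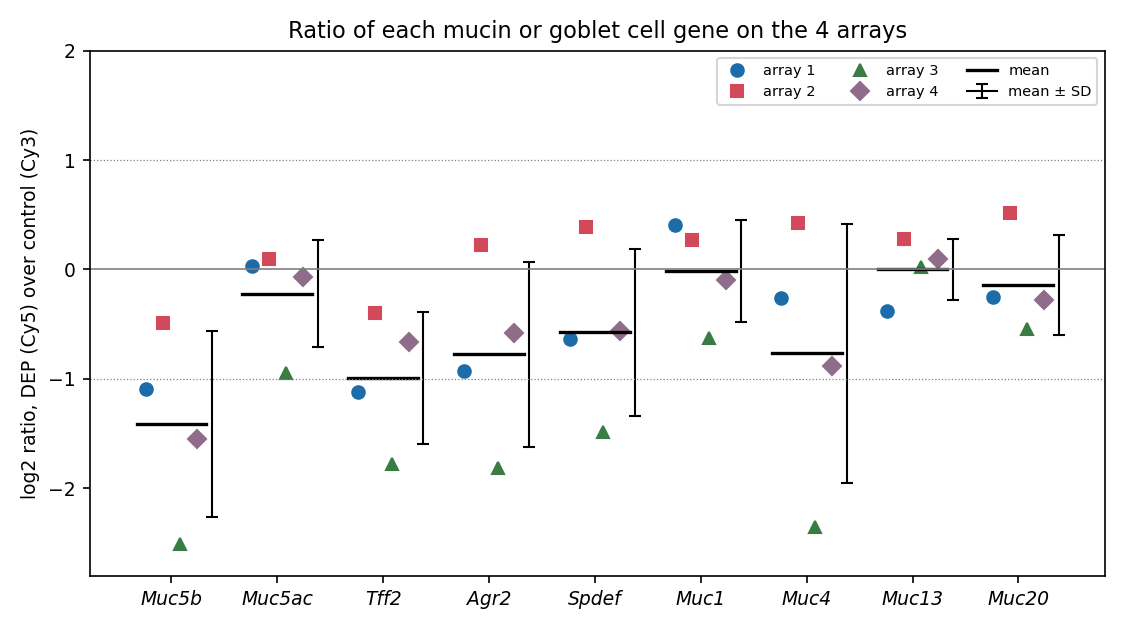
Log2 ratio of DEP (Cy5) over control (Cy3) for the brightest probe of each gene on the 4 arrays, with the mean as a line and the SD as a bar beside it; dotted lines mark 2-fold. Muc5b and Tff2 lie below 0 on all 4 arrays, array 3 is the lowest for 8 of the 9 genes, and array 2 is above 0 for 7 of them.

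Muc5b encodes the gel-forming mucin on which mucociliary clearance of the airways and the middle ear depends. Its probe (A_55_P2007457) stood well above background in each channel of every array, with 98.6% of probes dimmer. The processed signal in the DEP channel was 2467, 17467, 17101 and 31629.6 on arrays 1 to 4, against 5267, 24533, 97562 and 92678 in the control channel. On each array the control signal was the higher, but the channels overlapped between arrays, since the control signal on array 1 lay below the DEP signals on arrays 2, 3 and 4. The log2 ratios were -1.09, -0.49, -2.51 and -1.55. Their mean was -1.41 ± 0.85 (SD, n = 4 arrays; standard error 0.34, 95% confidence interval -2.30 to -0.52, adjusted p = 0.167 from limma). An exact sign-flip test of 4 ratios of one sign gives p = 0.125, the smallest it can give. With median centring after normexp correction the mean was -0.80, and with normexp correction and loess it was -1.39.

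Muc5ac, the other gel-forming mucin measured, is the inducible mucin of surface goblet cells. Its probe (A_51_P102883) was well above background on all arrays but dim. The DEP channel gave 50.1, 53.5, 38.5 and 77.4 and the control channel 49.0, 49.97, 74.3 and 81.4. Its ratios were close to 0 on arrays 1, 2 and 4, at 0.03, 0.10 and -0.07, and -0.95 on array 3. The mean of -0.22 ± 0.49 (SD, n = 4 arrays; interval -0.77 to 0.33, adjusted p = 0.594 from limma) turned to 0.019 without array 3.

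Tff2 encodes a trefoil peptide, a small disulfide-linked protein that is secreted with mucus and is best known from the stomach. Its probe (A_51_P480602) gave 2026, 30832, 26246 and 58722 in DEP and 4399.9, 40631, 89845 and 93019.8 in control. As for Muc5b, control was the higher on each array and both channels were lowest on array 1. The ratios were -1.12, -0.40, -1.78 and -0.66, with a mean of -0.99 ± 0.60 (SD, n = 4 arrays; standard error 0.25, interval -1.64 to -0.34, adjusted p = 0.176 from limma). Of all probes 98.9% were dimmer. With normexp correction and median centring the mean was -0.22, and the unadjusted p was then 0.304.

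Agr2, an endoplasmic reticulum disulfide isomerase that mucins need for folding, had signals of 382, 5227, 2702 and 8260.3 in DEP and 726, 4478, 9511 and 12390.3 in control. DEP was the lower on arrays 1, 3 and 4 and the higher on array 2. The ratios of -0.93, 0.22, -1.82 and -0.58 gave a mean of -0.78 ± 0.84 (SD, n = 4 arrays; interval -1.66 to 0.10, adjusted p = 0.305 from limma). The mean was -0.43 without array 3 and -1.11 without array 2.

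Spdef, the ETS-family transcription factor that drives goblet cell differentiation, followed Agr2 in sign on every array. Its signals were 209, 1336, 737 and 1769.7 in DEP and 325, 1024, 2067 and 2607 in control. The ratios were -0.63, 0.38, -1.49 and -0.56, with a mean of -0.57 ± 0.76 (SD, n = 4 arrays; interval -1.38 to 0.23, adjusted p = 0.375 from limma). The mean was -0.27 without array 3 and -0.89 without array 2.

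Among the transmembrane mucins, Muc4, which can also bind the receptor ERBB2, had the largest SD of the ratio. The brighter of its probes (A_55_P2025687) gave 72.2, 183, 91.6 and 193 in DEP and 86.5, 136, 468 and 356 in control. The ratio was -2.35 on array 3 and -0.26, 0.43 and -0.88 on arrays 1, 2 and 4. The mean of -0.77 ± 1.18 (SD, n = 4 arrays; interval -1.98 to 0.44, adjusted p = 0.421 from limma) was smaller than its SD, and was -0.24 without array 3. Its other probe (A_55_P2029603) remained below the limit for well above background on every array and was not tested.

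Muc13, a transmembrane mucin of epithelial and blood-forming cells, had the smallest spread of the members. Its signals of 688, 926, 569 and 823 in DEP and 898, 764, 559 and 772 in control overlapped. The ratios were -0.38, 0.28, 0.02 and 0.09, and the mean was 0.0026 ± 0.28 (SD, n = 4 arrays; interval -0.37 to 0.38, adjusted p = 0.993 from limma). With 4 arrays, a difference within that interval in either direction was not excluded.

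Muc20, whose gene overlaps Muc4, gave 324, 819, 551 and 965 in DEP and 387, 573, 802 and 1174 in control with its brighter probe (A_51_P211506). The ratios were -0.26, 0.52, -0.54 and -0.28, with a mean of -0.14 ± 0.46 (SD, n = 4 arrays; interval -0.66 to 0.38, adjusted p = 0.721 from limma), which turned to 0.22 with median centring after normexp correction. The second probe (A_55_P2164744) did not stand well above background on any array and was not tested. Muc1, the widely expressed epithelial mucin, stood well above background in both channels on 3 arrays, array 1 being the exception. It gave 32.7, 79.9, 53.9 and 101 in DEP and 24.6, 66.1, 83.4 and 108 in control. The ratios were 0.41, 0.27, -0.63 and -0.10, and the mean was -0.01 ± 0.47 (SD, n = 4 arrays; interval -0.54 to 0.52, adjusted p = 0.980 from limma).

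The arrays differed among themselves. On array 3, 5 of 9 members (Muc5b, Tff2, Agr2, Spdef and Muc4) were past 2-fold lower in DEP, beside 4.28% of named genes on that array. The count was 2 on array 1 (Muc5b and Tff2), beside 9.99%, 1 on array 4 (Muc5b), beside 4.33%, and 0 on array 2, beside 6.61%. The median ratio of the 9 members was -0.38, 0.27, -1.49 and -0.56 on arrays 1 to 4, against -0.03, 0.08, 0.03 and 0.06 over all named genes. Over the means of the arrays, the median was -0.57 for the members and 0.04 for all genes, and 8 of 9 members were below 0 beside 44.7% of genes. The ratio was below 0 on all 4 arrays for 2 members, beside 10.2% of genes, and above 0 on all 4 for 0, beside 16.2%. Among the 14283 genes measured in both channels on every array, 8 of them members, 1 member was past 2-fold lower, beside 2.78%, and 0 past 2-fold higher, beside 0.805%. Unadjusted, 2 of these 8 passed 0.05 lower in DEP, beside 5.86%, and 0 higher, beside 6.67%, while 7 had a mean below 0, beside 44.3%. Array 3 gave the lowest ratio for 7 of the 8, beside 20.7%. Across all probes, which are not independent replicates, Pearson's r between the ratios of arrays ranged from -0.22 (arrays 1 and 4) to 0.61 (arrays 1 and 2).

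The levels of Muc5b, Tff2, Agr2 and Spdef differed more between arrays than between the channels of an array. For this comparison, chosen after the values were seen, each signal was written as its log2 distance from the 75th percentile of its own array and channel. Muc5b stood at 0.98, 4.26, 4.46 and 5.35 in DEP and at 2.07, 4.74, 6.95 and 6.89 in control on arrays 1 to 4. From the lowest to the highest array this was a range of 20.6-fold in DEP and 29.4-fold in control. Tff2 ranged over 46.6-fold in DEP and 33.9-fold in control, Agr2 over 34.8-fold and 27.4-fold, and Spdef over 13.6-fold and 12.9-fold, in the same order. Array 1 was the lowest in both channels for each of the 4 genes, and array 4 was the highest in both, except that Muc5b in control was highest on array 3 by a margin of less than 0.1 on the log2 scale.

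**Figure D2:**
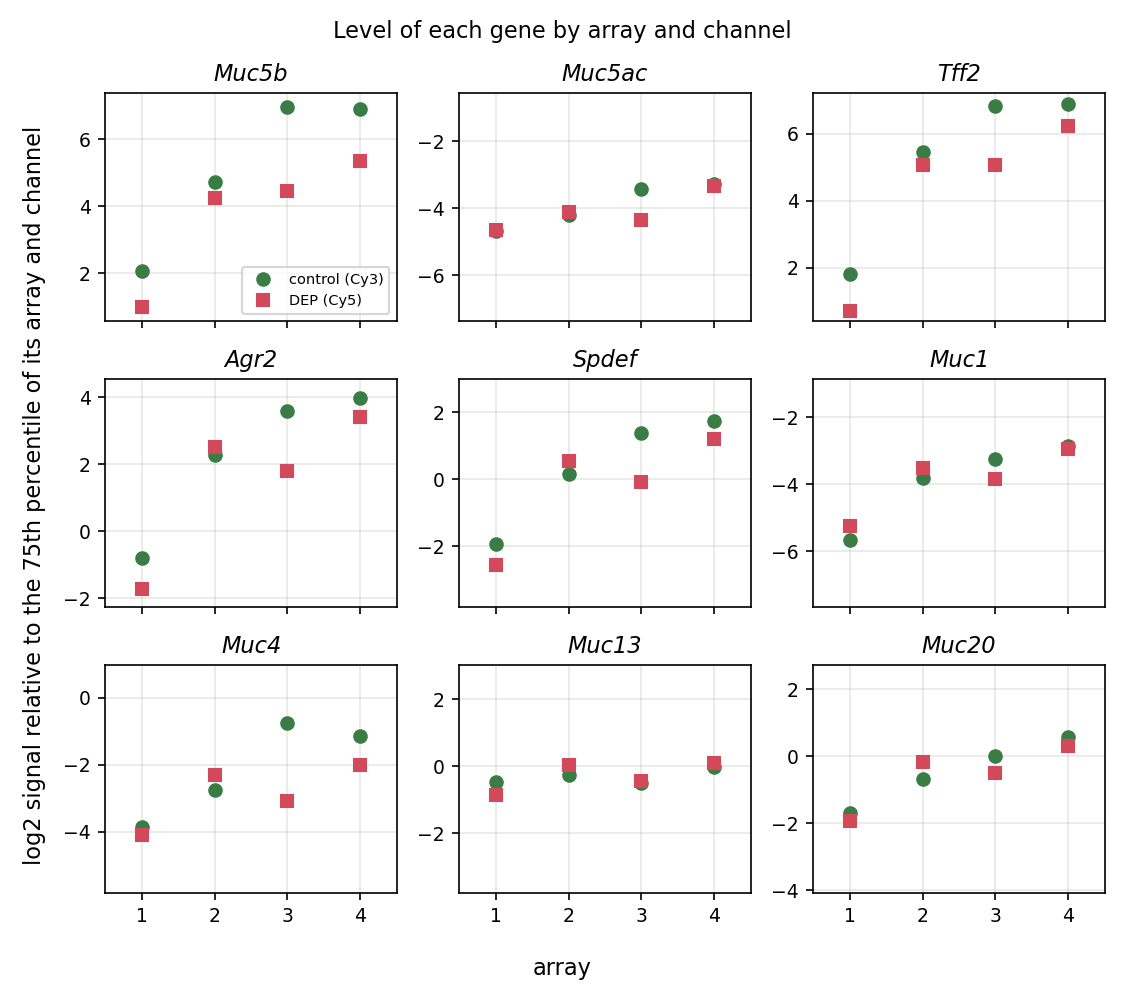
Level of each gene on arrays 1 to 4 in the DEP (Cy5, squares) and control (Cy3, circles) channel, as log2 signal relative to the 75th percentile of that array and channel; all panels span the same number of log2 units, and levels are not comparable between genes. Muc5b, Tff2, Agr2 and Spdef are lowest on array 1 in both channels, while Muc13 has the smallest range of the genes plotted.

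The range between arrays was smaller for the other members. The range in DEP and control was 4.79-fold and 4.86-fold for Muc20, 4.30-fold and 8.57-fold for Muc4 and 2.48-fold and 2.66-fold for Muc5ac. It was 4.95-fold and 7.01-fold for Muc1, which was not above background throughout. Muc13 ranged over 1.92-fold and 1.40-fold on the same arrays. Of the 8 members measured in both channels on all arrays, 6 had a range above 2 on the log2 scale in DEP, beside 3.82% of the 14283 genes measured as fully, and 6 in control, beside 4.5%. A range above 1 was found for 7 of the 8 in each channel, beside 15.5% in DEP and 18.6% in control. The median range over those genes was 0.43 in DEP and 0.48 in control. The SD between arrays of Tff2 exceeded that of 99.9% of these genes in DEP and of 99.8% in control, and that of Muc13 exceeded 84.4% and 51.3%. Array 1 was the lowest in both channels for 7 of the 8 members, all but Muc13, beside 10.9% of genes, and for 5 of them array 4 was also the highest in both, beside 4.45%. When the arrays were scaled instead by quantiles of their mean intensity (Aquantile) after normexp and loess, an alternative chosen after the values were seen, the ranges on the log2 scale stayed at 4.30 and 4.92 for Muc5b and at 5.21 and 4.97 for Tff2 in DEP and control. Those of Muc20 were then 1.89 and 1.81, and those of Muc4 were 1.098 and 1.92. Smaller ranges were also found for the dim probes, namely 0.45 and 0.71 for Muc5ac and 0.99 and 1.14 for Muc1. Muc13 had 0.80 and 0.41, so that in DEP its range was above that of Muc5ac with this scaling.

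The median levels of several other lists, though not of each gene in them, were also lowest on array 1 in both channels. For 19 enzymes that build the O-linked sugars of mucins, they were -0.52, -0.47, -0.46 and 0.005 in DEP on arrays 1 to 4. In control they were -1.28, -0.69, -0.06 and 0.33. For 11 mucin induction signals they were -1.51, -1.36, -1.22 and -1.01 in DEP and -1.54, -1.27, -1.18 and -1.19 in control. The median level of the 15 other goblet cell and mucous secretion genes measured in full was -0.61, 0.53, 0.48 and 0.67 in DEP and -0.43, -0.19, 0.99 and 1.12 in control. The median level of the 7 salivary gland genes measured in full was -2.41, 0.65, 0.60 and 0.49 in DEP and -2.87, 0.05, -0.90 and -0.08 in control, lowest on array 1 in both channels. That of the 18 airway genes was -0.84, 0.43, -0.21 and 0.45 in DEP and -0.80, -0.01, 0.17 and 0.77 in control, again lowest on array 1. The summed control signals were instead lowest on array 2 for the goblet cell list, at 150468 against 322136 on array 1. The same was true of the airway list, at 373037 against 563525. Both lists hold Bpifb1, which gave 124039 on array 2 and 288263 on array 1 in control, so that these sums share its signal. The median level of the 20 general epithelial genes was highest on array 1 in DEP, at 0.98, 0.34, -0.23 and 0.03. In control it was lowest there, at -1.50, -0.13, 0.07 and 0.61. That of the 10 epidermis genes was likewise highest on array 1 in DEP, at 3.32 against 0.62 on array 3 and 0.10 on array 4. In control it was lowest on array 1, at 0.29, 0.85, 0.86 and 0.59 on arrays 1 to 4. Genes of the general epithelial list differed among themselves. The keratin genes Krt7, Krt8, Krt18 and Krt19 were lowest on array 1 in both channels, while Cdh1 and Krt5, for example, were highest there in DEP. The part of gland, airway, skin or other epithelial tissue in the spread of the members was not tested. Each array holds 1 extract of each kind, so that array and extracts cannot be told apart.

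**Figure D3:**
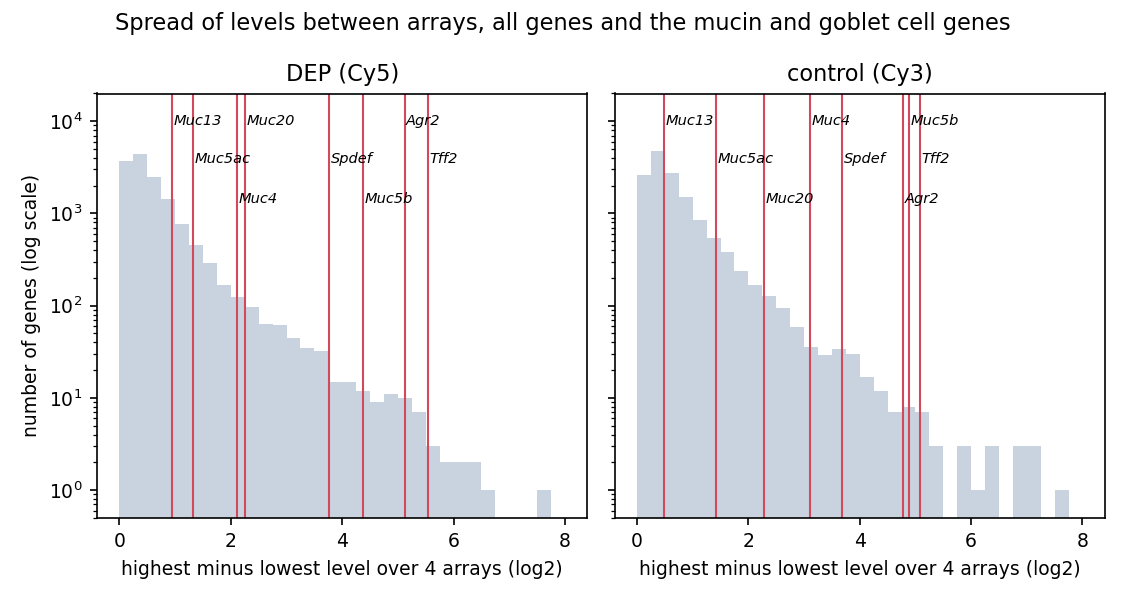
Number of genes (log scale) by the difference between their highest and lowest level over the 4 arrays, in log2 units, for genes measured in both channels on every array; red lines mark 8 members. Agr2, Muc5b, Spdef and Tff2 lie in the far right tail of both channels, while Muc13 is near the median of 0.48 in control and above the median of 0.43 in DEP.

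The other mucins of a list of 12 genes were mostly not measured, as 5 had a probe and 3 could be tested. Emcn, the sialomucin of endothelial cells, was measured in full and had a ratio of 0.01 ± 0.23 (SD, n = 4 arrays). Muc15 had ratios of 3.91, 0.35, 1.52 and -3.93, opposite in sign on arrays 1 and 4, and was well above background on 3 arrays in DEP and on 2 in control. Muc2, the intestinal gel-forming mucin, was well above background on 1 array in control and on 0 in DEP, so that no fold is given. The median of the 3 genes was 0.01.

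Goblet cell and mucous secretion genes beyond the members numbered 24, of which 21 were tested. By mean ratio 13 were lower and 8 were higher in DEP, with a median of -0.13. By limma's test 2 lower and 4 higher of the 21 genes passed an unadjusted 0.05, beside 7.5% and 9.2% of all named genes, and 0 passed it after adjustment. Of the 15 measured in full, 10 were lower, and 1 lower (Pigr) and 1 higher gene (Gfi1) passed the unadjusted limit, beside 5.86% and 6.67%. The lowest of them were Pigr, the receptor that carries antibodies across epithelium into mucus, at -1.08 ± 0.64 (SD, n = 4 arrays; adjusted p = 0.170 from limma) and below 0 on 4 of 4 arrays, and Bpifb1, a secreted airway protein, at -0.68 ± 0.93. The highest were Klf4, a transcription factor of epithelial differentiation, at 0.63 ± 0.77 and Gfi1, a transcriptional repressor, at 0.44 ± 0.32. The median of the list was 0.09, 0.40, -0.80 and -0.30 on arrays 1 to 4, so that, as for the members, array 2 gave the highest and array 3 the lowest value.

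Of the other trefoil genes, named after their values were seen, Tff1 was measured in full and had ratios of 0.35, 0.62, -1.65 and -0.97, and Tff3 was well above background on 2 arrays in control and on 0 in DEP. Of the forkhead genes that act upstream of secretory genes, Foxa1 had a mean of -0.13 ± 0.57 (SD, n = 4 arrays). Foxa2, measured in both channels on no more than 3 arrays, had one of -0.64 ± 1.16, with -2.23 on array 3.

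Enzymes that build the O-linked sugars of mucins were close to even. Of 22 listed, 21 were tested, 12 with a ratio below 0 and 9 above, beside 44.7% of named genes below 0, with a median of -0.06. In limma's test 0 had an unadjusted p under 0.05, beside 7.5% of named genes lower and 9.2% higher. The lowest among those measured in full were St6galnac1, a sialyltransferase that caps mucin sugars, at -0.72 ± 0.79 (SD, n = 4 arrays) and Galnt14 at -0.61 ± 0.82, and the highest were the fucosyltransferase gene Fut1 at 0.78 ± 1.97 and Galnt3 at 0.36 ± 0.60. Signals known to induce mucins, among them the ligands of the EGF receptor, type 2 cytokines and inflammatory cytokines, had a median of 0.57 over 22 genes, of which 18 were higher and 4 lower in DEP, beside 44.7% lower of all named genes. Of these 22, 11 were measured in full, 8 of them higher and 3 lower, beside 44.3% lower, with a median of 0.25. By limma's test 6 higher genes passed an unadjusted 0.05, 1 of which, the shedding protease gene Adam17, was measured in full, at 0.45 ± 0.19 (SD, n = 4 arrays; adjusted p = 0.186 from limma). The shares of higher genes passing that limit were 9.2% of all named genes and 6.67% of those measured in full. Egfr had a mean of 0.66 ± 0.67 and Il13ra1, a receptor chain for interleukin 13, one of 0.54 ± 0.75, while Hbegf had one of -0.27 ± 0.40 and Egf one of -0.20 ± 0.43. Il13 itself was well above background on 1 array in DEP and on 0 in control.

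General epithelial markers had their highest median ratio on array 1 and their lowest on array 4. Over 20 general epithelial genes the median ratio was 2.11, 0.44, -0.09 and -0.87 on arrays 1 to 4, with a median of the means of 0.37. Within the list, Krt7, Krt8, Krt18 and Krt19 had their lowest ratio on array 3, at -0.98, -0.91, -1.18 and -0.88. Cdh1 and Krt5 had theirs on array 4. The lowest means were those of the tight junction gene Cldn7 at -0.54 ± 0.45 and the simple epithelial keratin gene Krt18 at -0.48 ± 0.57, and the highest were the splicing factor genes Esrp2 at 0.98 ± 2.38 and Esrp1 at 0.80 ± 1.72 (SD, n = 4 arrays). Markers of secretory and ciliated airway epithelium, all 18 tested being measured in full, had medians of -0.17, 0.49, -0.17 and -0.09 and one of -0.0038 over the means, with 9 lower and 9 higher. Within that list Lyz1, the gene of a lysozyme, was the lowest at -1.32 ± 1.11 (adjusted p = 0.234 from limma) and Cyp2f2, a cytochrome of airway secretory cells, the highest at 0.49 ± 0.97. The ciliated cell factor gene Foxj1 had a mean of -0.02 ± 0.42. The summed signal of the airway list ranged from 302190 to 499375 in DEP and from 373037 to 703310 in control. That of the 9 members ranged from 6250 to 102542 and from 12162 to 203186.

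Among markers of tissues around the middle ear, the neuron list had the most genes lower in DEP. The epidermis list was higher in DEP for 10 of 11 genes and lower for 1, beside 44.7% of named genes lower. Of the 11, 1 was past 2-fold higher, beside 2.15%, and 0 had an unadjusted p under 0.05 in limma's test in either direction, beside 7.5% lower and 9.2% higher. The epidermis list had medians of 3.04, 0.31, 0.29 and -0.28, and its summed signal ranged from 35784 to 313286 in DEP and from 40864 to 62620.0 in control. The neuron list was lower for 14 of 14 genes, beside 44.7% of named genes. Of these, 7 were past 2-fold lower, beside 4.1%, and 7 were lower with an unadjusted p under 0.05 in limma's test, beside 7.5%, both larger shares than among the members. The list had medians of -2.27, -1.64, -0.68 and 0.25 and summed signals of 37617 to 46739 in DEP and 35168 to 124979 in control. Salivary gland genes, which could come with mucous glands, had medians of -0.11, 0.54, 1.18 and -0.34 over 13 genes, 8 of them higher, and summed signals of 5333 to 23311 and 5226 to 32696. Over the 7 measured in full the medians were -0.11, 0.52, 0.40 and -0.34, with 4 higher. Of these, Car6 was the highest measured in full at 1.45 ± 1.05 (SD, n = 4 arrays) and Aqp5, the water channel of serous gland cells, the lowest at -0.53 ± 0.89. Every gene tested was well above background somewhere in the lists of epidermis, neurons, marrow, B and erythroid cells, bone and muscle. The medians were 0.05 over 12 marrow myeloid genes, -0.02 over 11 B cell and erythroid genes, 0.18 over 9 bone and cartilage genes and 0.04 over 10 muscle genes, with ratios below 0 for 6, 6, 3 and 4 of them, in that order. Prol1, a salivary gene, did not stand well above background on any array. The part that these tissues have in the ratios of the members was not tested.

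**Figure D4:**
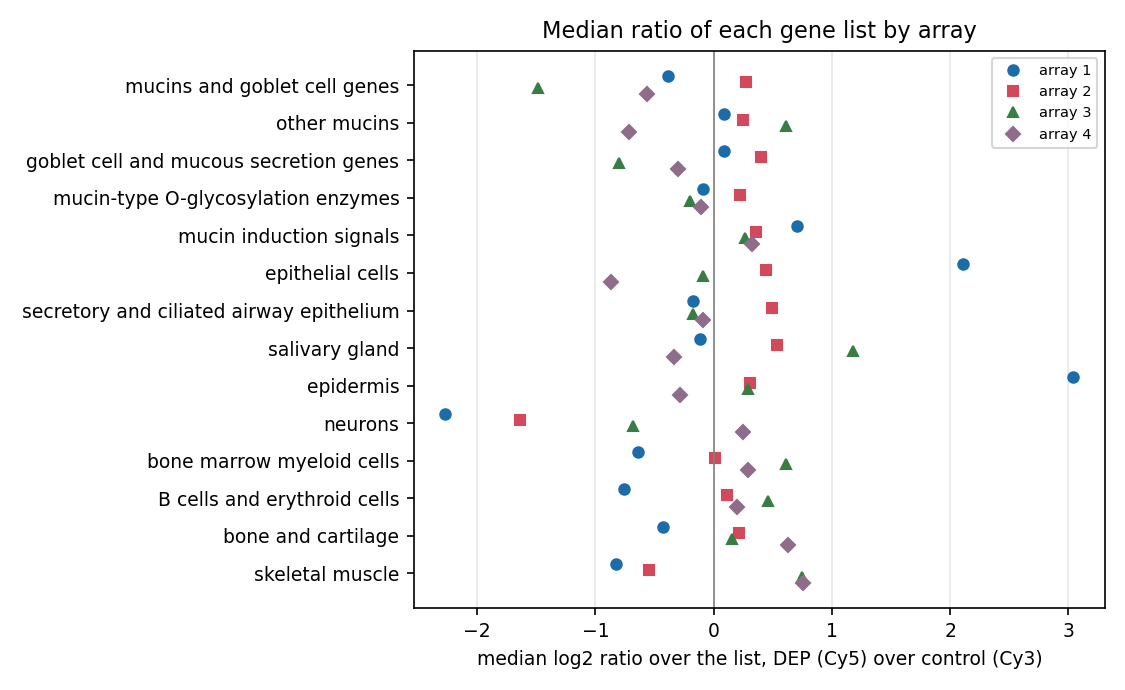
Median log2 ratio of DEP over control for the members and for 13 other gene lists, each point being 1 array. The members are lowest on array 3 at -1.49, whereas the lists of neurons and of epidermis depart most from 0 on array 1, at -2.27 and 3.04.

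The size of the ratios depended on the correction of background and dyes. With normexp and loess the mean was -1.39 for Muc5b, -0.82 for Tff2, -0.74 for Agr2 and -0.58 for Spdef. With normexp and median centring it was -0.80, -0.22, -0.35 and -0.27 in the same order, and -0.47 for Muc4, all closer to 0 than in the processed signals. With that setting, which changes both the background correction and the dye scaling, the median of all genes was 0.12 in place of 0.04.

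**Figure D5:**
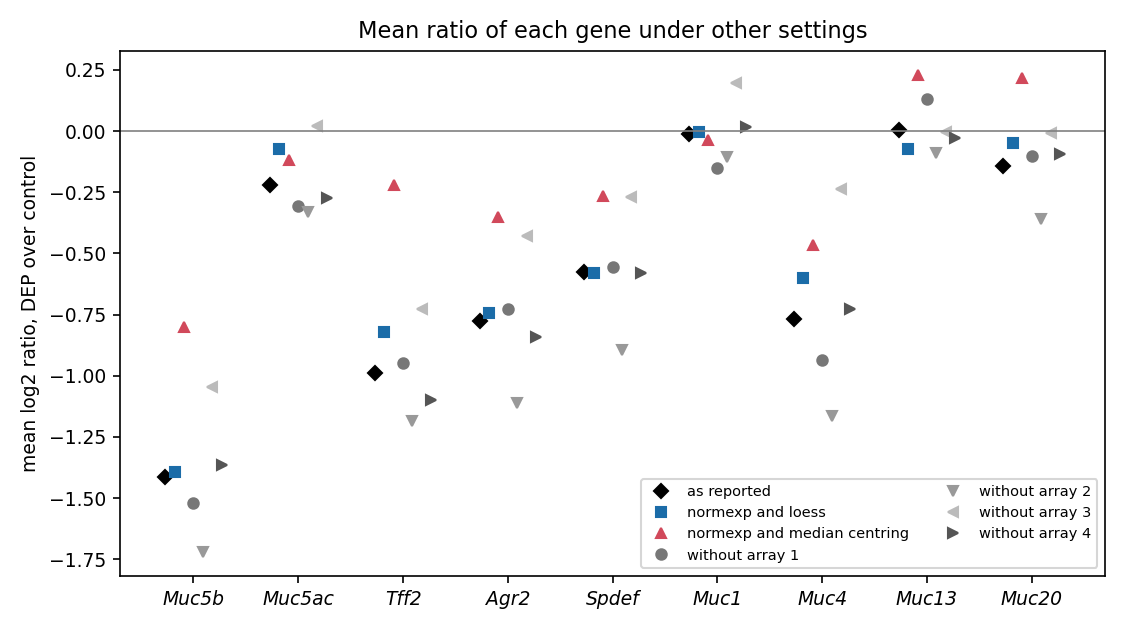
Mean log2 ratio of each gene as reported, with 2 other background and dye corrections, and with each array left out. Muc5b, Tff2, Agr2, Spdef and Muc4 stay below 0 under all 7 settings plotted, with Muc5b between -1.72 and -0.80.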

How the data were processed

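Total RNA of the ear extracts was hybridised to Agilent 4x44K mouse arrays, scanned and read with Agilent Feature Extraction 10.10.1.1 per the submitters' processing notes. The authors deposited scanner files with intensity values, namely background-subtracted and dye-normalized (linear and lowess) processed signals and the raw median signals, together with the log10 ratio of Cy5 over Cy3; the table of log10 values that the authors deposited for the series holds the same ratios. Genomic build mm9 is named by the array design, and no gene positions from it were used.

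Log10 ratios were turned into log2 without further centring. Control spots, flagged spots and those lacking a ratio were dropped, and spots of 1 probe were averaged. Of 39429 probes, 27655 were named through their accession in the RefSeq table of GRCm38.p6. Probes with a ratio on at least 3 of the 4 arrays were fitted with limma 3.58.1 in R 4.3.3 (lmFit and eBayes on the mean ratio), with p-values adjusted by Benjamini-Hochberg across every tested probe, and the brightest probe stood for its gene. Tables were made with Python 3.11.15, pandas 2.3.3 and numpy 2.4.6, and figures with matplotlib 3.10.9. Simulated data were used to test the fit.

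The members and gene lists were chosen with earlier results of these data known. Of each other list the examples named are up to 4 genes with the largest and smallest mean ratio among those measured in full. Others were chosen after their values were seen, namely Foxa1, Foxa2, Tff1, Tff3, Adam17, Il13, Foxj1, Muc2, Muc15 and Prol1. The same holds for Krt5, Krt7, Krt8, Krt19 and Cdh1 of the epithelial list. The labels call the arrays biological replicates, and p-values measure the spread between them only. The number of arrays limits the precision. Alternatives covered background and dye correction (normexp with an offset of 50), the filter on dim probes, flagged spots, the moderation, the choice of probe and leaving out each array.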

Additional observations from a re-analysis of the deposited data

Results flagged for a closer look

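The log2 ratio of Muc5ac on array 3, -0.95, stood apart from the ratios on the other 3 arrays by the gap between it and the nearest of them. The gap was compared with the whole range for 27 sets of 4 values over the members, and it was the 1 value found; chance gives such a gap in about 1 in 20 sets.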

How the results depend on the processing

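With normexp correction and median centring the number of members past 2-fold was 0 in place of 1, and the number with an unadjusted p under 0.05 in limma's test was 1 (Muc5b) in place of 2. Leaving out each array in turn gave 1 to 4 members past 2-fold and 2 to 4 with an unadjusted p under 0.05, with 4 of each without array 2; 0 had an adjusted p under 0.05 under any of these settings. The median over the members, -0.57 as reported, was -0.22 with normexp correction and median centring and ranged from -0.89 without array 2 to -0.24 without array 3. Signs turned for means near 0. Muc13 was -0.071 with normexp and loess and between -0.089 and 0.13 with arrays left out, Muc20 was 0.22 with median centring, Muc1 was between -0.15 and 0.20 with arrays left out, and Muc5ac was between -0.33 and 0.019. Of the mean ratios of single genes under alternatives, 116 kept their direction and 8 turned in sign; since none had an adjusted p under 0.05 under any setting, that count says nothing of the 2-fold limit or of the unadjusted p. The adjusted p of Muc5b ranged from 0.0729 to 0.371 over the alternatives. The test of the within-array ratios is itself the paired comparison of the channels, and with 1 group no replicate number could be added as a block. Both channels share an array and no dye was swapped, and signals near background limit the ratios of Muc1 and Muc5ac. Muc4 was also low in DEP on arrays 1 and 3, at 72.2 and 91.6, which limits its ratios there. The cause of these differences was not tested.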
